A study of Rattus norvegicus with 12 samples.

Results

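The genes described here encode calcium/calmodulin-dependent kinases (Camk2a, Camk2b, Camk2d, Camk2g and Camk4), subunits of the calcium-activated phosphatase calcineurin (Ppp3ca, Ppp3cb and Ppp3r1), the inositol 1,4,5-trisphosphate (IP3) receptor Itpr1 and the IP3 3-kinase Itpka. They were chosen by name alone, as every non-control probe of the array that carries one of these 10 symbols, which gave 17 probes and 35 spots out of 41012 probes and 43379 spots for 35608 genes. None of the 9 genes that were tested passed in any comparison, and Camk2d was too dim to be tested. By the brightest probe of each gene, the lowest unadjusted p-values against 6-OHDA belonged to Itpka, lower in the DOPA group, and to Ppp3ca, lower in the DOPA/HFS group. The second probe of Ppp3ca had the opposite sign in the DOPA/HFS group. Dimmer probes of Ppp3r1 and Camk2b, higher in the DOPA group, also had an unadjusted p under 0.05, as had 606 of all 24318 probes tested singly.

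Calcium that enters a striatal neuron through glutamate receptors and channels, or leaves the endoplasmic reticulum through IP3 receptors, binds calmodulin. Calcium-bound calmodulin activates CaMKII, which phosphorylates synaptic proteins and is a central switch of synaptic plasticity, and calcineurin, which removes phosphate from several of the same proteins and from the dopamine-regulated phosphoprotein DARPP-32. Projection neurons of the striatum are rich in both enzymes and in Itpr1 and Itpka, and dopamine and glutamate inputs converge on this signalling.

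The arrays measured RNA of the dorsal striatum of 12 male rats, 3 in each of 4 groups and 1 array per rat. All rats had received 9 µg of 6-OHDA, a toxin for dopamine neurons, into the substantia nigra of the left side, and brains were taken 33 days after the lesion. Rats of the 6-OHDA group were given nothing else. The HFS group received high frequency stimulation of the subthalamic nucleus for 5 days (130 Hz, 80 µs pulses, 60 µA) through an electrode on the lesioned side, and rats of the DOPA group were injected 2 times a day over 19 days with L-DOPA (25 mg/kg) and benserazide (12.5 mg/kg). Both treatments were combined in DOPA/HFS rats, which were stimulated on the last 5 of the 19 days. No array came from an unlesioned rat, and of the groups on the arrays the methods describe an electrode only for the stimulated ones, so that implantation and stimulation cannot be told apart. Tissue punches of a rat were pooled before RNA extraction.

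Each value is a log2 signal after quantile normalization between the arrays, and a difference of 1 on this scale is a doubling. Signals of different probes cannot be compared with each other, since each probe binds its target differently. Spots well above background made up 50.5% to 63.24% of an array. Array DOPA/HFS replicate 3 stood apart, with 4175 outlier spots, as the scanner software marks them, against 2 to 25 on the others. The outlier spots were left out, and those of 2 of the probes described here, for Itpka and for the second probe of Ppp3ca, were among them on that array. Each replicate number was 1 slide, and each group kept 1 position on every slide, so that position and treatment cannot be told apart. Markers of other tissue differed between arrays. The 11 striatal projection neuron markers measured had a summed log2 signal from 17.9, on DOPA/HFS replicate 3, to 18.35, on 6-OHDA replicate 3. This range was no narrower than the differences from 6-OHDA given below for the brightest probes. Ppp1r1b (DARPP-32) and Drd1 (the D1 dopamine receptor) were well above background on all 12 arrays. The 7 choroid plexus markers tested summed to 8.47 to 9.57 in the 6-OHDA group and to 12.14 to 16.45 in the HFS group, led by Ttr and Sostdc1, and to 8.63 to 14.02 in DOPA and 8.07 to 10.03 in DOPA/HFS. The 3 cortical neuron markers tested, among them Slc17a7, summed to 9.64 to 10.73 in 6-OHDA, 9.1 to 11.07 in HFS, 9.62 to 11.24 in DOPA and 9.74 to 10.71 in DOPA/HFS. No gene of these lists or of those for oligodendrocytes (8 tested, with Mbp), astrocytes (6, with Gfap and Aqp4) and microglia (7, with Aif1 and Itgam) was called. At an unadjusted p under 0.05, 7 of 7 choroid plexus genes were higher in HFS than in 6-OHDA (median log2 difference 2.28), and 0 genes of the oligodendrocyte, astrocyte and microglia lists had such a p in that comparison. Of the oligodendrocyte genes, 8 of 8 lay higher in stimulated than in unstimulated rats, by a median of 0.07, and 0 of them had an unadjusted p under 0.05. The part of these differences in the results below was not tested.

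A gene entered the tests if its probe was well above background on at least 5 of the 12 arrays, and the brightest probe stood for the gene. This left 20462 genes, 9 of them among the 10, and 14 of the 17 probes. Camk2d was the exception. A call needed a limma p, adjusted after Benjamini-Hochberg, under 0.1 together with a fold over 1.2 or under 0.8. In HFS against 6-OHDA, 0% of all tested genes were called and 0 of the 9, where 2.34% of all genes and 0 of the 9 had an unadjusted p under 0.05. In DOPA against 6-OHDA, 0.00489% of all tested genes were called, which is 1 gene, Igsf5, named here after its value was seen. It was no longer called when the slide was a block in the fit. The count was 0 of the 9, and 1 of the 9 had an unadjusted p under 0.05 against 2.59% of all genes. In DOPA/HFS against 6-OHDA the values were 0% of all genes, 0 of the 9, and 1 of the 9 at an unadjusted p under 0.05 against 2.76%. The lowest adjusted p of any of the 9 genes in limma was 0.911, in the comparison of stimulated with unstimulated rats. Bulk tissue was measured, so that fewer cells of a type and less RNA per cell cannot be told apart.

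**Figure D1:**
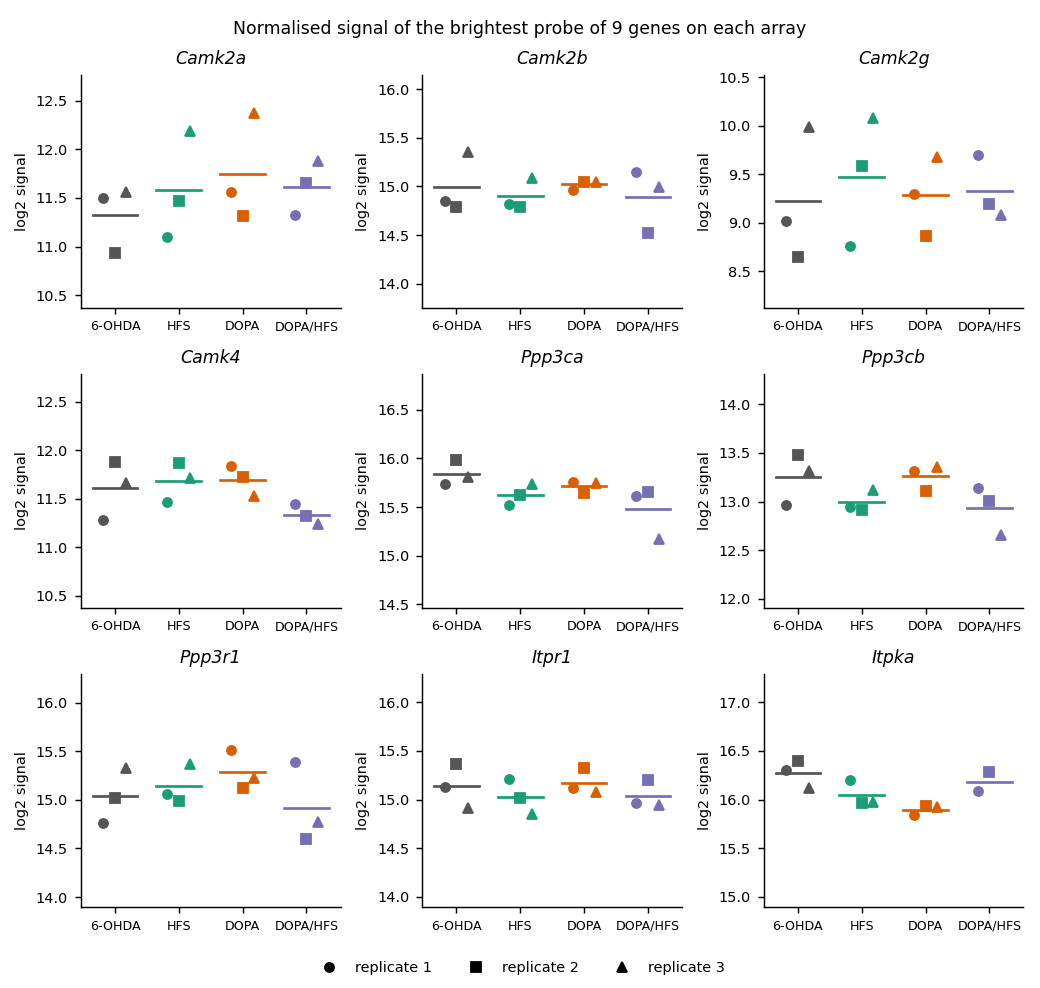
Log2 signal (y axis, the same span in every panel) of the brightest probe of the 9 tested genes in the 4 groups (x axis). Each point is 1 array, its shape gives the replicate number and the line is the group mean. Itpka has 2 points in DOPA/HFS because the third spot was an outlier. The groups overlap in most panels, while the 3 DOPA arrays of Itpka and the 3 DOPA/HFS arrays of Ppp3ca lie below all 6-OHDA arrays.

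The kinase subunits come first. Camk2a encodes the alpha subunit of CaMKII, the main forebrain isoform. Its brighter probe (A_44_P296812) is printed 10 times on the array, and it read 11.50, 10.93 and 11.56 on the 6-OHDA arrays, 11.10, 11.47 and 12.19 on the HFS arrays, 11.56, 11.31 and 12.37 on the DOPA arrays and 11.32, 11.65 and 11.88 on the DOPA/HFS arrays. The highest array of each treated group lay above all 6-OHDA arrays and the lowest did not, so that the groups overlapped. The log2 difference from 6-OHDA was 0.26 for the HFS arrays, 0.41 for the DOPA arrays and 0.29 for the DOPA/HFS arrays, each with an SE of 0.33 and limma adjusted p-values of 0.998, 1 and 1. The second probe (A_44_P101625) stayed between 8.77 and 9.46 on all 12 arrays. It gave differences of -0.02 (SE 0.19), -0.15 (SE 0.19) and -0.19 (SE 0.19), so that the probes of Camk2a had opposite signs in each comparison, and the gene has no settled direction.

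The 10 spots of the brighter Camk2a probe show the error of reading a spot. Within an array the spots had a standard deviation of 0.033 to 0.085 on the log2 scale, with a median of 0.054. Between arrays of a group the standard deviation was 0.453. The spots of the dimmer Itpr1 probe, printed 10 times too, had a within-array median of 0.054 and a between-array value of 0.423. Extraction, labelling, hybridisation and scanning enter the between-array value together with the rats themselves.

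**Figure D2:**
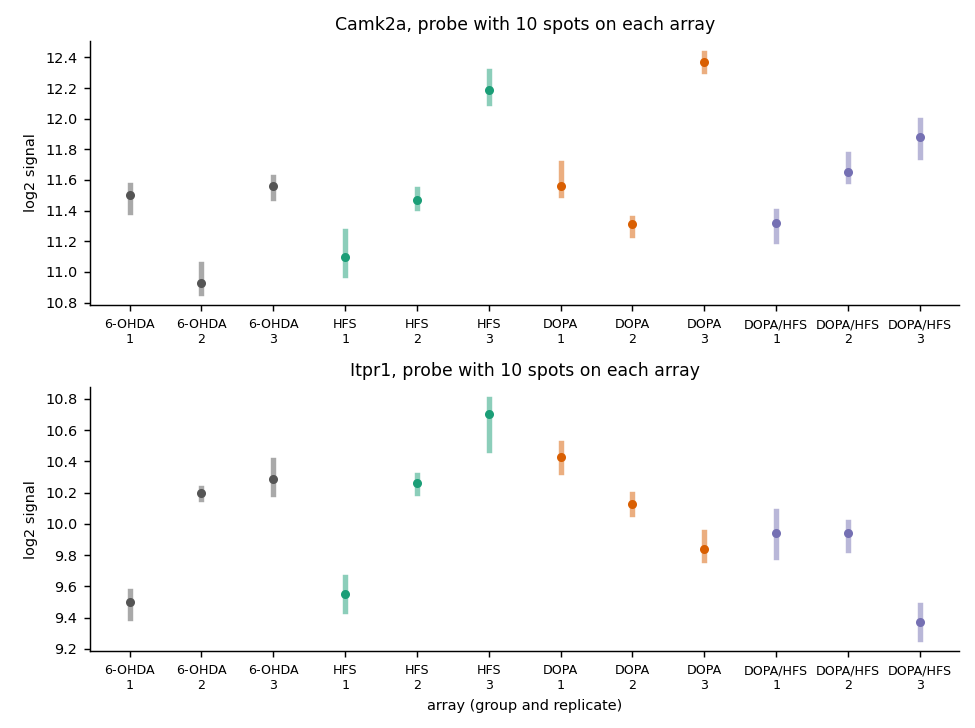
Log2 signal (y axis) of the 2 probes that are printed 10 times, on each of the 12 arrays (x axis, group and replicate). Points are array means and bars run from the lowest to the highest of the 10 spots. The bars are short beside the distances between arrays of 1 group.

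Camk2b encodes the beta subunit of CaMKII, which also binds actin. Its brightest probe (A_44_P561102) read 14.85, 14.79 and 15.35 in 6-OHDA, 14.82, 14.79 and 15.09 in HFS, 14.96, 15.05 and 15.05 in DOPA and 15.15, 14.52 and 14.99 in DOPA/HFS. These ranges overlapped, with differences of -0.10, 0.02 and -0.11 (each with SE 0.20) in the order HFS, DOPA and DOPA/HFS. A second probe (A_44_P452145) read 12.51, 12.19 and 13.05 in 6-OHDA and 13.52, 12.72 and 13.31 in DOPA, a difference of 0.60 (SE 0.26, limma adjusted p = 1, exact permutation p = 0.2). The DOPA arrays of this probe were higher on all 3 slides, by 0.25 to 1 log2 units, although 1 of them lay within the 6-OHDA range. On the DOPA/HFS arrays it read 12.81, 12.29 and 12.44, within the 6-OHDA range. The difference between the stimulation effects with and without L-DOPA was -0.85 (SE 0.36, limma adjusted p = 1) for this probe and -0.04 (SE 0.28) for the brightest one. The third Camk2b probe was well above background on 0 arrays.

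Camk2d and Camk2g encode the delta and gamma subunits, which are more widespread outside the brain. Neither probe of Camk2d passed the filter. A_44_P441695 was well above background on 0 arrays and A_44_P339708 on 2, both of the DOPA/HFS group. The latter read 4.67, 3.67 and 4.91 in 6-OHDA, 3.06, 4.50 and 4.52 in HFS, 3.16, 4.17 and 4.07 in DOPA and 5.10, 5.35 and 4.65 in DOPA/HFS. Camk2d was thus measured on 2 arrays alone, and no fold change is given for it. Camk2g had 1 probe, with 9.02, 8.65 and 9.99 in 6-OHDA, 8.76, 9.59 and 10.08 in HFS, 9.30, 8.87 and 9.68 in DOPA and 9.70, 9.19 and 9.08 in DOPA/HFS. It varied most among the tested genes, with a standard deviation of 0.547 within groups, and its differences of 0.26, 0.06 and 0.10 were all smaller than their SE of 0.40.

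Camk4 encodes a nuclear kinase that phosphorylates the transcription factor CREB. Its probe read 11.28, 11.88 and 11.66 in 6-OHDA, 11.47, 11.87 and 11.71 in HFS, 11.84, 11.72 and 11.53 in DOPA and 11.45, 11.32 and 11.24 in DOPA/HFS. The DOPA/HFS arrays were low, and they overlapped with 6-OHDA through its lowest array. The difference from 6-OHDA was -0.27 (SE 0.18, limma adjusted p = 1) in DOPA/HFS, 0.08 in HFS and 0.09 in DOPA. Set against the DOPA array of the same slide, the DOPA/HFS array was lower by 0.39, 0.40 and 0.29, while HFS minus 6-OHDA was 0.19, -0.01 and 0.06. The test of this difference between the stimulation effects gave -0.44 (SE 0.25, limma adjusted p = 1).

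Calcineurin is a dimer of a catalytic A subunit, encoded in brain mainly by Ppp3ca and Ppp3cb, and the calcium-binding B subunit encoded by Ppp3r1. The brighter Ppp3ca probe (A_44_P372439) read 15.74, 15.98 and 15.81 in 6-OHDA, 15.52, 15.62 and 15.74 in HFS, 15.76, 15.64 and 15.75 in DOPA and 15.61, 15.65 and 15.17 in DOPA/HFS. All HFS and all DOPA/HFS arrays lay below the lowest 6-OHDA array, although the highest HFS array equals it at 2 decimals. Of all tested genes, 2.34% had 3 HFS arrays below the 3 of 6-OHDA, and 3.04% had 3 DOPA/HFS arrays below them, and in each comparison Ppp3ca was 1 of the 9.

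The difference was -0.37 (SE 0.16, limma adjusted p = 1, fold 0.775) in DOPA/HFS, with an unadjusted p under 0.05, and on the 3 slides it was -0.13, -0.33 and -0.64. In HFS it was -0.22 (SE 0.16, limma adjusted p = 0.998), with -0.22, -0.36 and -0.07 on the slides. In DOPA it was -0.13 (SE 0.16). The exact two-sided permutation test of 3 against 3 arrays gave p = 0.1 in HFS and in DOPA/HFS, which is the smallest value it can give. Array DOPA/HFS replicate 3, which carried the many outlier spots, was the lowest of all, and without it the difference was -0.21. The second Ppp3ca probe (A_44_P221588), much dimmer, read 9.27, 9.73 and 9.40 in 6-OHDA and 9.43 and 9.63 on the DOPA/HFS arrays that kept it, a difference of 0.07 (SE 0.30) that has the opposite sign to the brighter probe. In HFS it read 8.94, 9.34 and 9.51, with a difference of -0.20 (SE 0.27).

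Ppp3cb read 12.96, 13.48 and 13.31 in 6-OHDA, 12.94, 12.91 and 13.12 in HFS, 13.31, 13.11 and 13.36 in DOPA and 13.14, 13.01 and 12.66 in DOPA/HFS. The stimulated groups had the lower means, and all 4 groups overlapped with 6-OHDA or each other. The difference from 6-OHDA was -0.26 (SE 0.18) in HFS, 0.02 (SE 0.18) in DOPA and -0.31 (SE 0.18) in DOPA/HFS.

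When the 6 stimulated rats were compared with the 6 others, with L-DOPA balanced, Ppp3cb differed by -0.29 (SE 0.13) and Ppp3ca by -0.23 (SE 0.11), both with a limma adjusted p = 0.911. Without DOPA/HFS replicate 3 these differences were -0.22 and -0.15. At an unadjusted p under 0.05 these rats differed in 4.34% of all tested genes, and in 1 of the 9, Ppp3cb, by the brightest probe. The dimmer Ppp3r1 probe described below had such a p too, as had 1023 of all 24318 probes tested singly. The second Ppp3ca probe, without a value on DOPA/HFS replicate 3, differed by 0.01 (SE 0.20). Called genes made up 0% of all tested genes and 0 of the 9. The exact permutation within each L-DOPA condition, which can go down to 0.005, gave p = 0.03 for Ppp3cb and p = 0.015 for Ppp3ca, neither of them corrected for the number of genes. The mean difference of stimulated from unstimulated arrays was negative on all 3 slides for both genes, at -0.09, -0.34 and -0.45 for Ppp3cb and -0.18, -0.18 and -0.32 for Ppp3ca. The median difference over all tested genes was 0.004 in the same comparison, and over the 9 it was -0.13. With signals scaled to the 75th percentile of each array in place of quantile normalization, the median of all genes itself moved to -0.09 in this comparison.

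Ppp3r1 has 2 measured probes. The brighter one (A_43_P10391) read 14.76, 15.02 and 15.33 in 6-OHDA, 15.06, 14.99 and 15.37 in HFS, 15.51, 15.12 and 15.22 in DOPA and 15.39, 14.60 and 14.77 in DOPA/HFS. Its groups overlapped, and the differences of 0.10, 0.24 and -0.12 (each with SE 0.23) were close to or below their errors. The dimmer one (A_44_P149148) read 9.89, 9.73 and 9.69 in 6-OHDA, 9.90, 9.53 and 9.42 in HFS, 10.11, 9.98 and 10.43 in DOPA and 9.65, 9.62 and 9.55 in DOPA/HFS. All 3 of its DOPA arrays were above the 6-OHDA arrays and all 3 of its DOPA/HFS arrays below them. By the brightest probe of each gene, 3.16% of all tested genes had DOPA above 6-OHDA and 3.04% had DOPA/HFS below it in this way. The share over all probes was not counted. The differences were 0.41 (SE 0.17) in DOPA and -0.16 (SE 0.17) in DOPA/HFS, each with a limma adjusted p = 1 and an exact permutation p = 0.1. In the comparison of stimulated with unstimulated rats this probe differed by -0.36 (SE 0.12, limma adjusted p = 0.931 over all probes, exact permutation p = 0.025 before any correction) and the brighter one by -0.13 (SE 0.16).

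**Figure D3:**
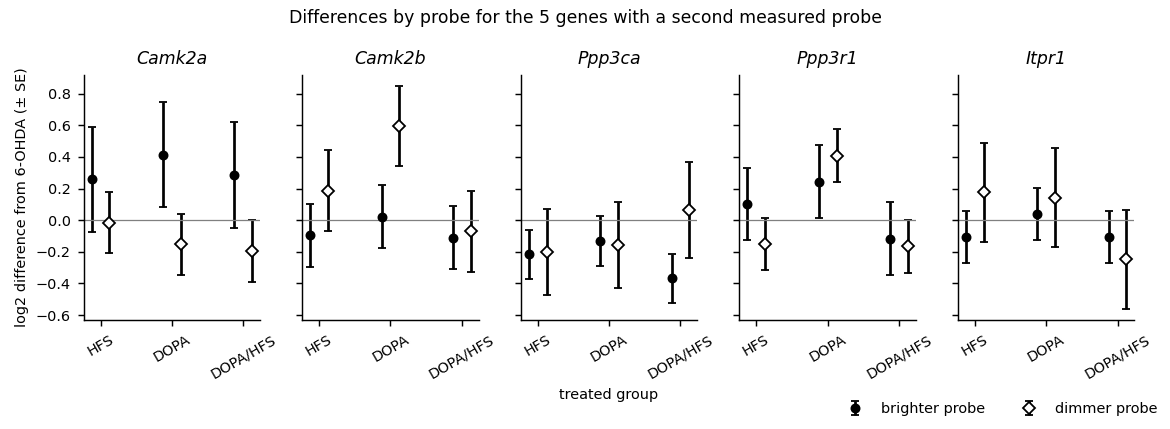
Log2 difference from 6-OHDA (y axis, with SE bars) in the 3 treated groups (x axis) for the 5 genes that have 2 measured probes. Filled circles are the brighter and open diamonds the dimmer probe. The probes of Camk2a point in opposite directions in all 3 comparisons, and those of Ppp3r1 point the same way in DOPA and DOPA/HFS.

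The IP3 arm follows. Itpr1 encodes the type of IP3 receptor that releases stored calcium in neurons. Its brighter probe (A_44_P215056) read 15.13, 15.37 and 14.91 in 6-OHDA, 15.21, 15.02 and 14.85 in HFS, 15.12, 15.32 and 15.08 in DOPA and 14.96, 15.20 and 14.94 in DOPA/HFS. It covered 0.52 log2 units over the 12 arrays, the narrowest range of the 9 genes. The differences were -0.11, 0.04 and -0.11, all below their SE of 0.16. The 10-spot probe read 9.50, 10.20 and 10.29 in 6-OHDA, 9.55, 10.26 and 10.70 in HFS, 10.43, 10.13 and 9.84 in DOPA and 9.94, 9.94 and 9.37 in DOPA/HFS, with differences of 0.18, 0.14 and -0.25, all below their SE of 0.31.

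Itpka encodes the neuronal kinase that phosphorylates IP3 to inositol tetrakisphosphate, which ends IP3 signalling, and that also bundles actin in dendritic spines. It read 16.30, 16.40 and 16.12 in 6-OHDA, 16.20, 15.96 and 15.98 in HFS, 15.84, 15.93 and 15.92 in DOPA, and 16.09 and 16.28 on the DOPA/HFS arrays with a usable spot. The order of the group means was 6-OHDA (16.27), DOPA/HFS (16.18), HFS (16.04) and DOPA (15.90). Only the DOPA arrays lay wholly below the 6-OHDA arrays, a pattern shared by 3.11% of all tested genes in that comparison and by 1 of the 9. Neighbours in this order overlapped, with the exception of HFS and DOPA, where the lowest HFS array (15.96) lay above the highest DOPA array (15.93). The share of all tested genes with HFS above DOPA in this way was not counted. Itpka, Ppp3ca and Ppp3r1 are among the genes that the study itself names from these same arrays, so that a difference of theirs here is not independent evidence in either direction.

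The difference of Itpka from 6-OHDA was -0.38 (SE 0.14, limma adjusted p = 1, fold 0.771) in DOPA, with an unadjusted p under 0.05, and the slides gave -0.47, -0.46 and -0.19. The exact two-sided permutation test gave p = 0.1, the smallest possible with 3 against 3 arrays. In HFS the difference was -0.23 (SE 0.14, limma adjusted p = 0.998), with -0.11, -0.44 and -0.14 on the slides. In DOPA/HFS it was -0.09 (SE 0.16, limma adjusted p = 1) over 2 arrays. The spot left out on the third would have read 15.89, below every 6-OHDA array. Itpka had the smallest spread of the 9, with a standard deviation of 0.121 within groups. Against the DOPA array of the same slide the DOPA/HFS array was higher by 0.25 and 0.34, while HFS was lower than 6-OHDA on all 3 slides. The test of the difference between these stimulation effects gave 0.51 (SE 0.21, limma adjusted p = 1), and 0.43 with the outlier spot kept. At an unadjusted p under 0.05 and by the brightest probe, this interaction took in 1.98% of all tested genes and 1 of the 9, Itpka. The second Camk2b probe, at -0.85 (SE 0.36), also had such a p, as had 485 of all 24318 probes tested singly. Called were 0% of all tested genes and 0 of the 9.

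**Figure D4:**
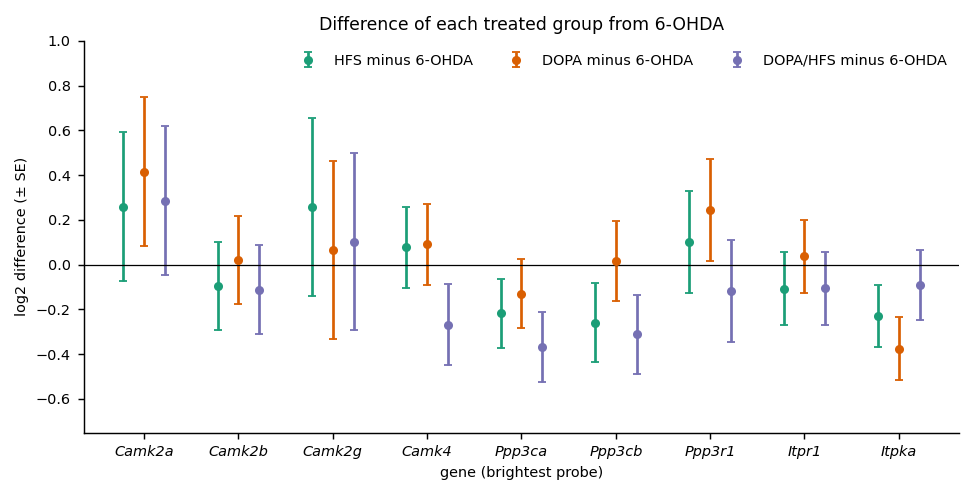
Log2 difference from 6-OHDA (y axis) of the brightest probe of each of the 9 tested genes (x axis) in the 3 treated groups, with bars of 1 standard error from limma. The 3 comparisons share the 6-OHDA arrays. Ppp3ca and Itpka lie below 0 in all 3 groups, and no difference passed the test.

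The comparison of L-DOPA treated with untreated rats gave no unadjusted p under 0.05 among the 9 genes, against 2.73% of all tested genes, and the lowest belonged to Ppp3ca (difference -0.14, SE 0.11, limma adjusted p = 1). Called were 0.00489% of all tested genes, again Igsf5, and 0 of the 9. Over the 3 comparisons with 6-OHDA, the median difference of the 9 was -0.10 for HFS, 0.04 for DOPA and -0.11 for DOPA/HFS, where the medians over all tested genes were 0.01, -0.01 and -0.01. Lower than in 6-OHDA were 5 of the 9 after HFS, 2 after DOPA and 7 after DOPA/HFS. The comparisons share the 6-OHDA arrays, so that a high or low 6-OHDA array enters each of them.

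Across arrays, the genes varied together in some pairs, given here as a description and by the brightest probe of each gene. Correlations of the dimmer probes were not calculated. Among the 28 pairs of the 8 genes measured on all 12 arrays, Ppp3ca and Ppp3cb had the highest correlation of log2 signals (Pearson r = 0.864, Spearman rho = 0.804). It was 0.853 for deviations from the group means, and 0.665 over the 10 arrays left without 6-OHDA replicate 2 and DOPA/HFS replicate 3, the ones farthest from the median of Ppp3ca. Ppp3cb ranked 5 among 18351 genes by likeness to Ppp3ca. These values hold for the brighter Ppp3ca probe alone. The dimmer one was lowest on DOPA replicate 1 (8.83) and highest on DOPA replicate 2 (9.91), where Ppp3cb read 13.31 and 13.11. The lowest correlation among the 28 pairs was that of Camk2g and Itpr1 (r = -0.844, rho = -0.867, -0.877 within groups). It was -0.739 over the 10 arrays without 6-OHDA replicate 3 and HFS replicate 3. This holds for the brighter Itpr1 probe alone. On HFS replicate 3, Camk2g was at its highest (10.08) and the brighter Itpr1 probe at its lowest (14.85). The dimmer Itpr1 probe was at its highest there (10.70). Camk2b and Ppp3r1 had r = 0.712 and Camk2a and Camk2g had r = 0.632, while Itpr1 ran opposite to Camk2a (r = -0.604) and Camk2b (r = -0.559). All values share the same arrays, normalization and slides.

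**Figure D5:**
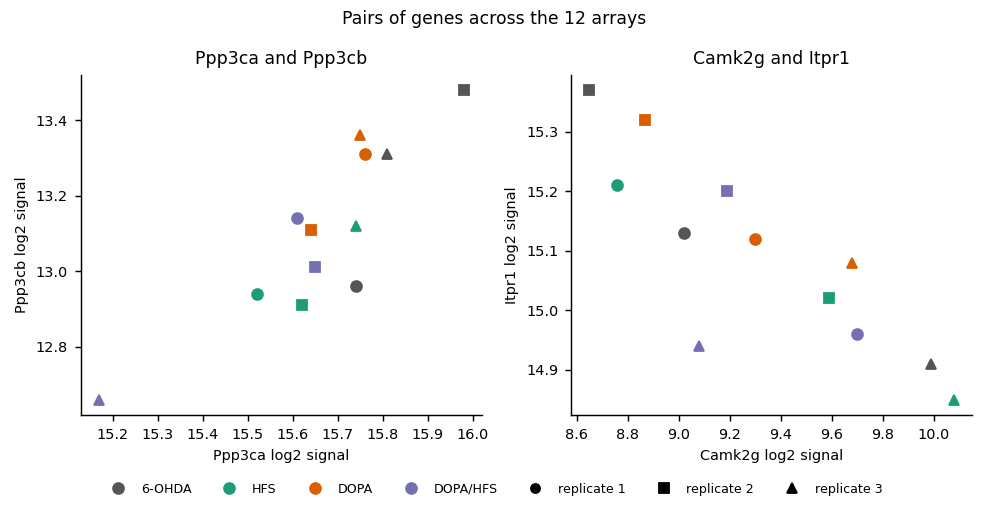
Log2 signals of Ppp3ca and Ppp3cb (left) and of Camk2g and Itpr1 (right) on the 12 arrays, by the brightest probe of each gene. Colours give the group and shapes the replicate number. The left pair rises together with DOPA/HFS replicate 3 at the low end, and the right pair runs in opposite directions within groups.

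The 3 genes most like the brightest probe of a member over the arrays were found among all tested genes with a value on each of them. Many carry no gene name. For Camk2a they were the unnamed probe A_44_P628117 (r = 0.895), Ccn2 (r = 0.887) and Tp53i11 (r = 0.883). For Ppp3ca they were LOC291411 (r = 0.895), Rcor1 (r = 0.895) and Zadh2 (r = 0.881). Those of Itpr1 carried only the names of transcripts, BF566546 (r = 0.967), AI600035 (r = 0.967) and XM_216221 (r = 0.963). For Itpka, over the 11 arrays with a value, they were LOC688785 (r = 0.928), Ybx3 (r = 0.912) and LOC683470 (r = 0.905).

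The surrounding pathway was read from 4 lists, of which 34 genes were tested. None was called in any of the comparisons, and the median difference was -0.05 for HFS, -0.06 for DOPA and 0.03 for DOPA/HFS, beside 0.01, -0.01 and -0.01 over all genes. Of calmodulin and calmodulin-binding genes, 6 of 6 were tested and none had an unadjusted p under 0.05. The genes with the lowest p-values within this list were Nrgn (neurogranin), higher by 0.21 (SE 0.15) with L-DOPA, and Gap43, at -0.14 (SE 0.15) in DOPA/HFS. Of the other calmodulin kinases and CaMKII inhibitors, 8 of 9 were tested. Camk1g differed by 0.28 (SE 0.13) between stimulated and unstimulated rats, and its HFS arrays, at 12.62, 12.45 and 12.39, lay above the 6-OHDA arrays, at 12.07, 12.24 and 12.10. Such a separation upwards was found in 2.8% of all tested genes. The upstream kinases Camkk1 (-0.45, SE 0.26, in DOPA) and Camkk2 (-0.31, SE 0.18, in DOPA/HFS) overlapped with 6-OHDA.

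Of the calcineurin partners, 8 of 11 were tested. Rcan3, of a family of calcineurin inhibitors, read 5.19, 5.54 and 5.27 in 6-OHDA and 3.81, 4.57 and 3.74 in HFS. All HFS arrays were lower, as in 2.34% of all tested genes (log2 difference -1.29, SE 0.33, limma adjusted p = 0.998, unadjusted p under 0.05). In DOPA it differed by -0.72 (SE 0.33), with all arrays below 6-OHDA, and in DOPA/HFS by -0.55 (SE 0.33), with overlap. However, its probe was well above background on only 6 of the 12 arrays, 2 of them 6-OHDA, 1 HFS, 1 DOPA and 2 DOPA/HFS. The size of these differences therefore rests partly on signals that were not well above background. Of the transcription factors in the list that calcineurin activates, Nfatc4 and Nfatc3 were tested, and Nfatc1 and Nfatc2 were not. Nfatc4 differed by -0.46 (SE 0.24) in DOPA, where its highest array (6.36) lay just below the lowest 6-OHDA array (6.38). Of all tested genes, 3.11% had all DOPA arrays below 6-OHDA. No difference is given for Nfatc3 because its probe was well above background on 5 arrays, 0 of them in DOPA. Of the genes for IP3 and store calcium, 12 of 12 were tested. Plcb4, a phospholipase that makes IP3, was higher by 0.22 (SE 0.10, limma adjusted p = 1, unadjusted p under 0.05) with L-DOPA, Itpr3 by 0.30 (SE 0.15), and the ryanodine receptor Ryr2 was at -0.46 (SE 0.22).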

How the data were processed

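RNA of 12 striata was measured on single-colour Agilent 4x44K rat arrays, and groups and replicate numbers were taken from the sample labels. The authors deposited scanner files whose intensity values had been background-subtracted and detrended by Feature Extraction (version 9.1 in the submitters' processing notes and 9.1.3.1 in the file headers), and a table of log2 values that the authors had quantile normalized. The members, lists and tests were chosen with earlier results of these data known. Of 45018 spots, 1639 controls and the outlier spots were left out. Intensities were taken to log2, quantile normalized in R 4.3.3 and averaged over the spots of a probe. A RefSeq accession was given for 24824 of 41012 probes, and the RefSeq genes of GRCr8 named 10735. The others kept the file's name, without a "_predicted" ending.

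Probes well above background on 40% of arrays (at least 5) were kept and the brightest stood for its gene. All 4 groups entered 1 fit in limma 3.58.1 (lmFit, eBayes), with the packages data.table (1.17.8) and jsonlite (2.0.0), which stands for the 2-class SAM of the methods, and p-values were adjusted over all genes (or all probes, for single probes). The interaction is DOPA/HFS minus DOPA less HFS minus 6-OHDA. Exact permutation tests were two-sided. The fit was tested on simulated data. The replicate number is the slide in the file headers. Deviations of same-numbered arrays correlated between -0.287 and 0.476 (median 0.112, 18 pairs), and those of other arrays had a median of -0.0692 (36 pairs). The alternatives were 75th percentile scaling, normexp background correction (offset 50), the deposited log2 table, other filters, the mean of all probes, every probe on its own, the slide as a block, a fit of the compared arrays only, a limit of 0.05 for the adjusted p, no limit on the fold, outlier spots kept, and leaving out each array. The number of arrays limits the precision. Named genes are every member and its probes, per pathway list the 3 genes with the smallest p over the 5 comparisons other than the interaction, the first 2 markers of each list, and the 3 genes most like Camk2a, Ppp3ca, Itpr1 and Itpka by Pearson correlation. Of the genes this rule names, 2 are not reported here.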

Additional observations from a re-analysis of the deposited data

Results flagged for a closer look

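The stimulation effect on Itpka had opposite signs in rats with and without L-DOPA on every slide with a value. HFS minus 6-OHDA was -0.11, -0.44 and -0.14 on the 3 slides, and DOPA/HFS minus DOPA was 0.25 and 0.34 on the 2 slides with a usable spot. The difference between the effects was 0.51 on the log2 scale, which did not pass the limma test (adjusted p = 1), and 0.43 with the outlier spot kept. On the third slide the kept spot gives a DOPA/HFS signal of 15.89 against 15.92 in DOPA.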

How the results depend on the processing

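None of the 9 genes was called under any alternative. Of their 54 differences over the 6 comparisons, 25 kept their sign under every alternative and 29 did not. The lower Itpka signal in DOPA ranged from -0.49 to -0.31, and that of Ppp3ca in DOPA/HFS from -0.56 to -0.21. Over all genes, the number called in DOPA (1) was 0 without a filter, with the replicate block and at an adjusted p under 0.05, 2 with only the arrays compared, and 0 to 13 when single arrays were left out, the highest without DOPA/HFS replicate 1. It was 2 in the L-DOPA comparison (1) with normexp, the deposited table, a filter on all 3 arrays of a group or every probe on its own, and 1 to 28 without single arrays, the highest again without DOPA/HFS replicate 1. In HFS (0) it was 3 without a filter, 1 with the filter on all 3 arrays, and 0 to 2 without single arrays, the highest without DOPA replicate 1. In DOPA/HFS (0) it was 0 to 3 without single arrays, the highest without DOPA/HFS replicate 1. For stimulated against unstimulated rats (0) it was 1 with the filter on all 3 arrays and 0 to 1 without single arrays (1 without DOPA replicate 1 or 3), and for the interaction (0) it was 1 with that filter. The cause was not tested. With the replicate block the adjusted p of Itpka in DOPA was 1, and Ppp3cb under stimulation and the Itpka interaction no longer had an unadjusted p under 0.05. The counts of called genes in the other 5 comparisons were as without the block. Scaling to the 75th percentile shifted the median of all genes in DOPA/HFS from -0.01 to -0.18, so that Itpka and Itpr1 there moved to -0.32 and -0.33.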
